A study of Saccharomyces cerevisiae with 6 samples.

Results

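The 40 genes described here encode the enzymes and factors that carry messenger RNA translation in the cytosol of budding yeast: 18 aminoacyl-tRNA synthetase genes, 17 genes of initiation factors, 3 of elongation factors and 2 of termination factors. They were taken from a list of gene names, each matched to its probe set through the array annotation. All 40 were found, each with 1 probe set, among 5449 S. cerevisiae genes tested. Total RNA of 3 samples labelled as BAS1 deletion mutant and 3 labelled as wild type, strain FY4, was hybridised to Affymetrix arrays. BAS1 encodes a Myb-family transcription factor that activates purine and histidine synthesis genes. Both strains grew exponentially in batch, in minimal medium with glucose at 30 °C with shaking at 300 rpm, and the design text states a common cell density at harvest. The labels name neither the parent of the deletion strain nor what took the place of BAS1, and nothing in them says that replicates came from different cultures. The p-values therefore measure only the spread between these samples, which may be technical.

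Aminoacyl-tRNA synthetases attach each amino acid to its tRNA. Initiation factors bring the initiator tRNA, the small ribosomal subunit and the capped messenger together, elongation factors deliver aminoacyl-tRNAs and move the ribosome along, and termination factors release the finished chain at a stop codon. Uncharged tRNA activates the kinase Gcn2, which phosphorylates eIF2 and so inhibits eIF2B, its exchange factor. General initiation then slows, while translation of GCN4 increases, whose product turns on genes for making amino acids.

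Levels are log2 of the deposited intensities, 1 value per gene and array, and differences are log2 differences, deletion minus wild type. A gene is called, and is said to rise or fall, where limma's adjusted p over all 5449 genes was under 0.05. The labels were checked on BAS1, which stood at 4.83 ± 0.06 (SD, n = 3) in the deletion arrays, under background, and at 11.09 ± 0.12 (SD, n = 3) in the wild-type arrays. The median level of all tested genes ran from 11.10 to 11.14 in the deletion arrays and from 10.94 to 10.997 in the wild-type arrays. Over all probe sets, those without a matched gene included, it ran from 8.47 to 8.65 and from 7.81 to 7.89. Background levels went the other way, from 5.73 to 6.12 and from 6.22 to 6.60. The strain offset thus differed between sets of probe sets, and its part in the results was not tested. Counts, and the differences of some genes, are also given with each array centred on its median over the tested genes. All 16 rRNA probe sets read lower in the deletion arrays, 14 with a call, with a median difference of -3.09 log2. Poly-A spike controls divided the arrays into 3 low ones, 1 deletion and 2 wild type, and 3 high ones. The part of rRNA and of spike level in the results below was not tested, beyond the fits by spike level given with the processing alternatives.

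Of the 40 translation genes, 19 fell in the deletion strain, 3 rose and 18 did not pass the test. Among the 40, 47.5% were called lower and 7.5% higher, against 19.8% lower and 39.6% higher among all tested genes, of which 59.5% were called either way. Their median difference was -0.15, against 0.11 over all tested genes. The largest fall was in WRS1, at 1.47-fold, and HEF3 alone passed a 2-fold change, a size that 9.47% of all genes reached with a call. In 26 genes every deletion array lay under every wild-type array, and in 4 every deletion array lay above. Over all genes these shares were 23.7% and 43.7%. After array centring 31 of the 40 fell and 1 rose, against 33.1% lower and 27.2% higher among all genes (60.3% either way). Quantile normalization gave 26 falls and 1 rise, against 35.5% lower and 24.9% higher (60.4% either way). These scalings moved the median of all genes to -0.04 and -0.07.

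**Figure D1:**
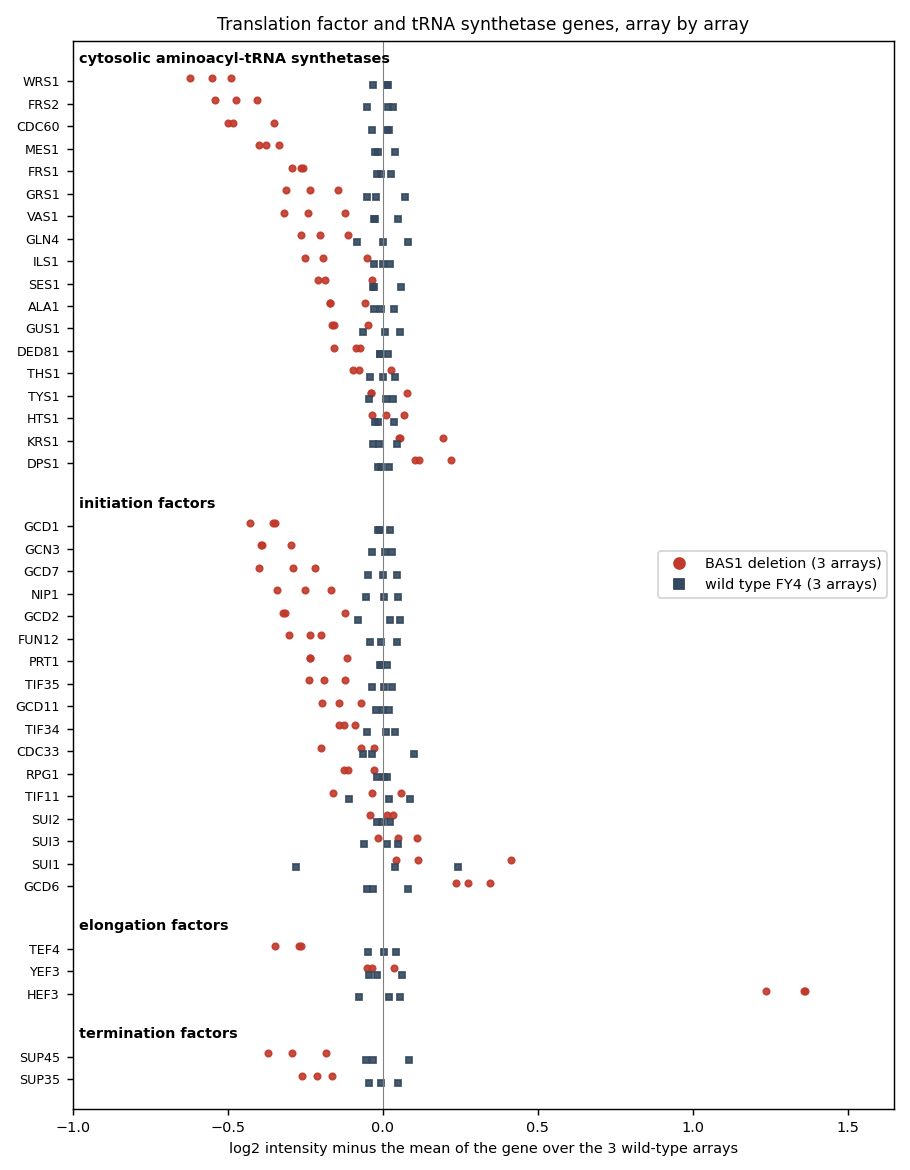
Each point is an array: log2 intensity of a gene minus that gene's mean over the 3 wild-type arrays, with BAS1 deletion arrays as red circles and wild-type arrays as dark squares. Deletion arrays lie left of the wild-type arrays for 26 of 40 genes, and far to the right for HEF3.

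The deletion arrays did not sit evenly. Deletion replicate 2 held the highest of the 3 deletion values for 34 of the 40 genes, against 46.6% of all genes. Among wild-type arrays, replicate 3 was the highest for 26 of the 40, against 36.6% of all genes. Without deletion replicate 2, 23 of the 40 fell and 2 rose, while 976 of all 5449 genes were called lower and 1860 higher. Without deletion replicate 1, 13 of the 40 fell and 2 rose, with 878 of all genes lower and 2053 higher. Without deletion replicate 3 these counts were again 13 and 2, with 862 of all genes lower and 1847 higher. Most of the 22 calls ended in the low-spike arrays alone, and most in the high-spike arrays alone, each time with 2 arrays against 1. In both subsets calls dropped by a larger share among the 40 than among all genes, and the cause was not tested. The calls that ended in both were those of DPS1, GRS1, VAS1, GLN4, FUN12, PRT1, NIP1, TIF35, GCD2, GCD6, GCD7, SUP35 and SUP45. FRS1 and TEF4 lost theirs in the low-spike arrays and GCN3 in the high-spike arrays. As RNA came from whole cultures, fewer expressing cells and less RNA per cell cannot be told apart.

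Of the 18 cytosolic synthetase genes, 8 fell, 1 rose and 9 did not pass the test, with a median difference of -0.15. Among all genes 19.8% were lower and 39.6% higher, with a median of 0.11. WRS1 (YOL097C), the tryptophanyl-tRNA synthetase gene, had levels of 12.13, 12.27 and 12.20 in the deletion arrays, against 12.72, 12.77 and 12.77 in the wild-type arrays. The groups stood well apart, with a difference of -0.55 (SE 0.05, limma adjusted p = 2.2e-04). FRS2 (YFL022C) encodes the alpha subunit of phenylalanyl-tRNA synthetase, and its levels were 12.50, 12.43 and 12.36 in the deletion arrays and 12.93, 12.92 and 12.85 in the wild-type arrays. It fell 1.39-fold (difference -0.47, SE 0.05, limma adjusted p = 5.7e-04). FRS1 (YLR060W), the gene of the beta subunit of the same enzyme, read 12.98, 12.99 and 12.96 in the deletion arrays and 13.24, 13.23 and 13.27 in the wild-type arrays, with no overlap. Its fall was 1.21-fold (difference -0.27, SE 0.04, limma adjusted p = 0.0020). Within arrays FRS2 changed by -0.20 log2 relative to FRS1, and the strains did not overlap in that measure either.

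CDC60 (YPL160W), the leucyl-tRNA synthetase gene, had levels of 12.83, 12.98 and 12.84 in the deletion arrays and 13.29, 13.34 and 13.35 in the wild-type arrays. It fell 1.36-fold (difference -0.44, SE 0.06, limma adjusted p = 8.3e-04). MES1 (YGR264C), the methionyl-tRNA synthetase gene, had levels of 12.65, 12.69 and 12.62 in the deletion arrays and 13.01, 13.00 and 13.06 in the wild-type arrays. The gap between strains was larger than the spread within them, and the fall was 1.29-fold (difference -0.37, SE 0.05, limma adjusted p = 7.5e-04). Mes1 forms a complex with Gus1, the glutamyl-tRNA synthetase, and the tRNA-binding cofactor Arc1. ARC1 fell by 0.18 log2 (limma adjusted p = 0.0270), while GUS1 differed by -0.12 with overlapping strains (limma adjusted p = 0.104). After array centring GUS1 was called lower too (-0.28, limma adjusted p = 0.0075).

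The other called synthetase genes moved by smaller amounts. GRS1, VAS1 and GLN4, for the glycyl, valyl and glutaminyl enzymes, fell 1.17-fold, 1.17-fold and 1.14-fold (limma adjusted p = 0.0197, 0.0221 and 0.0415). DPS1, the aspartyl enzyme's gene, had levels of 13.41, 13.51 and 13.40 in the deletion arrays and 13.29, 13.31 and 13.27 in the wild-type arrays. It was the only synthetase gene of the 18 called higher, by 1.11-fold (difference 0.15, limma adjusted p = 0.0411), but it read -0.0072 after array centring. None of these 4 calls held in every fit that left out 1 array. The DPS1 call ended on leaving out any 1 of the 6 arrays (differences 0.11 to 0.17). GRS1 and VAS1 lost theirs without wild-type replicate 3, deletion replicate 1 or deletion replicate 3, and GLN4 without these or wild-type replicate 2. Over all left-out arrays the differences ran from -0.27 to -0.19 for GRS1, from -0.28 to -0.18 for VAS1 and from -0.23 to -0.15 for GLN4.

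Among the 9 synthetase genes that did not pass the test, differences lay between -0.16 and 0.10. ILS1, SES1, ALA1 and DED81, for the isoleucyl, seryl, alanyl and asparaginyl enzymes, had every deletion value under every wild-type value but limma adjusted p of 0.0615, 0.0916, 0.0652 and 0.0839. After array centring each of these 4 fell, by 0.26 to 0.32 log2. Over all genes 23.7% lay lower without overlap as deposited, and 33.1% were called lower after array centring. KRS1, the lysyl enzyme's gene, had deletion values of 13.60, 13.74 and 13.60, all above its wild-type values of 13.53, 13.51 and 13.59 (difference 0.10, limma adjusted p = 0.170), and differed by -0.053 after array centring. THS1, TYS1 and HTS1, for the threonyl, tyrosyl and histidyl enzymes, differed by -0.049, 0.00052 and 0.014, with overlapping strains. HTS1 and TYS1 turned to -0.14 and -0.15 after array centring, without a call, whereas THS1 was then called lower (-0.20, limma adjusted p = 0.0208).

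Synthetases belong to 2 unrelated structural classes, and ALA1, GRS1, HTS1 and VAS1 each also encode the mitochondrial form of their enzyme. These groupings were made after the values were seen. Of 8 class I genes 5 fell and none rose, with a median of -0.21, and of 10 class II genes 3 fell and 1 rose, with a median of -0.12. Of the 4 genes that serve both compartments, 2 fell. Among all genes 19.8% were lower and 39.6% higher, and the difference between the classes was not tested.

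Of the 17 initiation factor genes 8 fell, 1 rose and 8 did not pass the test, with a median of -0.14. Over all genes the shares were 19.8% lower and 39.6% higher, with a median of 0.11. The initiation genes are given here by complex, and the ranges of the complexes overlap. eIF2B, the exchange factor that reloads eIF2 with GTP, had a call in all 5 subunits as deposited, 4 lower and 1 higher. After array centring and after quantile normalization only the 4 lower ones kept theirs, beside 33.1% and 35.5% of all genes called lower. GCD1 (YOR260W), which with GCD6 encodes the catalytic pair, had levels of 11.64, 11.65 and 11.56 in the deletion arrays and 11.98, 12.02 and 11.98 in the wild-type arrays. Its difference was -0.38 (SE 0.05, limma adjusted p = 7.2e-04), with no overlap. GCN3 (YKR026C), a regulatory subunit that senses phosphorylated eIF2, read 11.45, 11.55 and 11.46 in the deletion arrays and 11.85, 11.88 and 11.81 in the wild-type arrays. It fell 1.28-fold (difference -0.36, SE 0.05, limma adjusted p = 0.0012). The other regulatory subunits lay lower too. GCD7 fell 1.23-fold (limma adjusted p = 0.0062) and GCD2 fell 1.19-fold (limma adjusted p = 0.0246). The GCD2 call ended without wild-type replicate 1 or 3, or deletion replicate 1 or 3, and over all left-out arrays its difference ran from -0.32 to -0.22.

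GCD6 (YDR211W), the subunit with the exchange activity itself, went the other way. Its levels were 12.25, 12.36 and 12.28 in the deletion arrays and 11.96, 11.98 and 12.09 in the wild-type arrays, so that every deletion value was above every wild-type value. GCD6 rose 1.22-fold (difference 0.29, SE 0.06, limma adjusted p = 0.0059), and this call ended after array centring (0.13, limma adjusted p = 0.118), after quantile normalization (0.17, limma adjusted p = 0.0570) and in the low-spike or high-spike arrays alone (0.28 and 0.23, limma adjusted p = 0.0729 and 0.0930). Array centring cannot alter a comparison between genes of the same array, but such a comparison does not restore the lost call. Set against each of the other 4 subunits in the same array, GCD6 changed by 0.54 log2 (GCD2) to 0.66 log2 (GCD1) in the upward direction, with no overlap between strains. These pairs were picked after the values were seen, and the changes include the falls of the other 4 subunits. An exact permutation test of 3 against 3 arrays cannot go below p = 0.1.

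**Figure D2:**
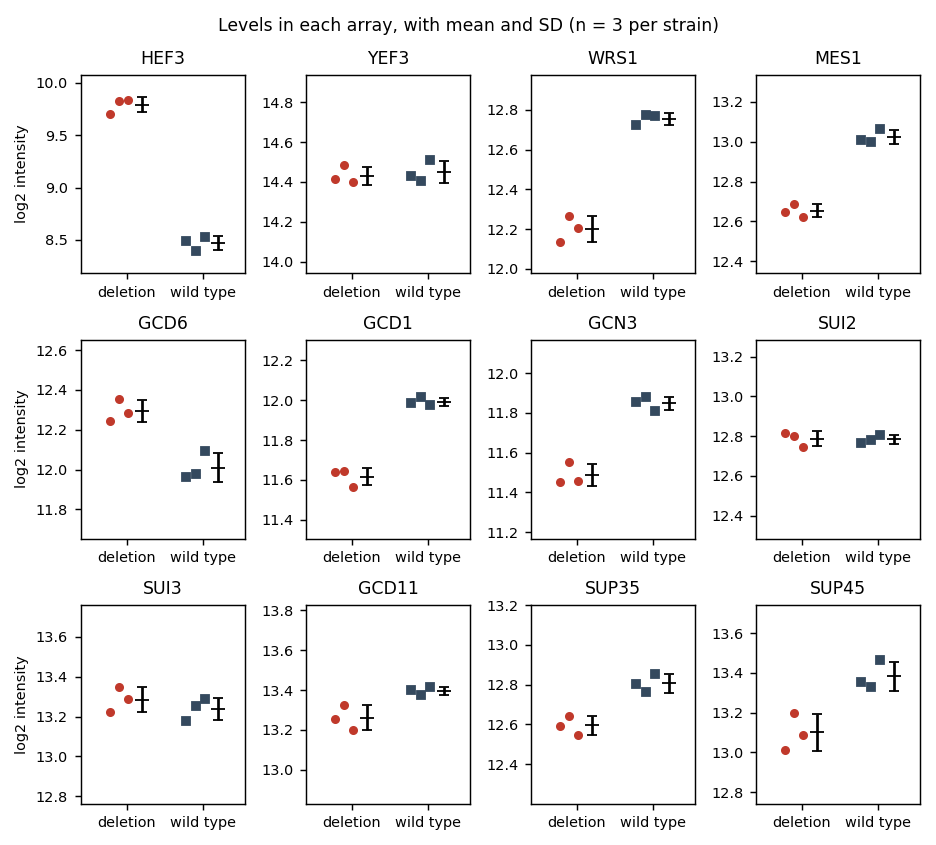
Log2 intensity of 12 genes in each array (red circles, BAS1 deletion; dark squares, wild type), with mean and SD of 3 arrays beside them. All panels span the same range except HEF3, which spans more; HEF3 and GCD6 are higher in the deletion arrays, WRS1, MES1, GCD1, GCN3, SUP35 and SUP45 lower, GCD11 lower by 0.14 without a call, and YEF3, SUI2 and SUI3 overlap.

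eIF2, which carries the initiator tRNA, showed no call in its 3 subunits. SUI2, the alpha subunit gene that Gcn2 acts on, had levels of 12.82, 12.80 and 12.74 in the deletion arrays and 12.76, 12.78 and 12.81 in the wild-type arrays, a difference of 0.0026 (SE 0.04, limma adjusted p = 0.963). SUI3, for the beta subunit, differed by 0.048 (SE 0.06, limma adjusted p = 0.483), and both overlapped between strains. GCD11, for the GTP-binding gamma subunit, lay lower in every deletion array, at -0.14 (SE 0.05, limma adjusted p = 0.0552). GCD11 changed by -0.14 log2 relative to SUI2 and by -0.18 log2 relative to SUI3 in the same arrays, and neither measure overlapped between strains. After array centring the balance moved to 2 falls in 3, in SUI2 (-0.15, limma adjusted p = 0.0468) and GCD11 (-0.29, limma adjusted p = 0.0045). Under that scaling 33.1% of all genes were called lower.

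The 5 genes of eIF3, the scaffold on the small ribosomal subunit, had differences between -0.25 and -0.088, and every deletion value of each was under its wild-type values. Over all genes 23.7% lay lower without overlap, and 19.8% were called lower. NIP1, for the c subunit, had levels of 12.73, 12.82 and 12.64 in the deletion arrays and 12.99, 12.93 and 13.03 in the wild-type arrays, and fell 1.19-fold (limma adjusted p = 0.0126). PRT1, for the b subunit, fell 1.14-fold (limma adjusted p = 0.0164) and TIF35, for the g subunit, fell 1.13-fold (limma adjusted p = 0.0200). Without deletion replicate 1 or 3 the calls of PRT1 and TIF35 ended, as did that of TIF35 without wild-type replicate 2, with differences of -0.23 to -0.17 for PRT1 and -0.21 to -0.16 for TIF35 over all left-out arrays. RPG1 and TIF34, for the a and i subunits, differed by -0.088 and -0.12 (limma adjusted p = 0.151 and 0.0672). After array centring all 5 fell, beside 33.1% of all genes.

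The remaining initiation genes act alone or at the cap. FUN12, which encodes eIF5B, the GTPase of subunit joining, had levels of 12.94, 12.97 and 12.87 in the deletion arrays and 13.16, 13.13 and 13.22 in the wild-type arrays, and fell 1.18-fold (difference -0.24, SE 0.05, limma adjusted p = 0.0066). CDC33, the gene of the cap-binding protein eIF4E, differed by -0.099 (SE 0.07, limma adjusted p = 0.262), but was called lower after array centring (-0.25, limma adjusted p = 0.0109). SUI1 and TIF11, for the scanning factors eIF1 and eIF1A, differed by 0.19 (SE 0.16) and -0.046 (SE 0.08). SUI1 had the widest spread of the 40 genes, with levels of 13.10, 13.03 and 13.40 in the deletion arrays and 13.02, 13.23 and 12.70 in the wild-type arrays, and the strains overlapped for SUI1, TIF11 and CDC33.

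The 3 elongation genes each did something else. HEF3 (YNL014W) encodes a paralog of elongation factor eEF3 that is little expressed in ordinary growth. Its levels were 9.71, 9.83 and 9.83 in the deletion arrays and 8.49, 8.39 and 8.53 in the wild-type arrays, all above the background level of their array, which was 6.60 at most. HEF3 rose 2.50-fold (difference 1.32, SE 0.06, limma adjusted p = 1.4e-05). The rise was 1.16 log2 after array centring, 0.996 after cyclic loess and 0.84 after quantile normalization, and it kept its call under every alternative run. YEF3 (YLR249W), the gene of the main eEF3, had levels of 14.42, 14.48 and 14.40 in the deletion arrays and 14.43, 14.40 and 14.51 in the wild-type arrays, a difference of -0.016 (SE 0.05, limma adjusted p = 0.802) that became -0.17 with a call after array centring (limma adjusted p = 0.0467). Within arrays HEF3 changed by 1.34 log2 more than YEF3. The paralogs are similar in sequence, and how far the YEF3 transcript adds to the HEF3 probe set was not tested.

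TEF4 (YKL081W), for the gamma subunit of eEF1B, the exchange factor of the tRNA-delivering factor eEF1A, had levels of 13.58, 13.59 and 13.50 in the deletion arrays and 13.86, 13.80 and 13.89 in the wild-type arrays. It fell 1.23-fold (difference -0.29, SE 0.05, limma adjusted p = 0.0029). Its paralog CAM1 differed by 0.045 (limma adjusted p = 0.450). Within arrays TEF4 changed by -0.34 log2 relative to CAM1, from -0.35 to -0.33 in the deletion arrays and from -0.037 to 0.030 in the wild-type arrays.

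Both termination genes fell with all 6 arrays. SUP45 (YBR143C), for eRF1, which recognises stop codons, read 13.01, 13.20 and 13.09 in the deletion arrays and 13.35, 13.33 and 13.47 in the wild-type arrays, a 1.22-fold fall (difference -0.28, SE 0.07, limma adjusted p = 0.0119). SUP35 (YDR172W), for its GTPase partner eRF3, known as the yeast prion protein, read 12.59, 12.64 and 12.55 in the deletion arrays and 12.80, 12.76 and 12.86 in the wild-type arrays, a 1.16-fold fall (difference -0.21, SE 0.05, limma adjusted p = 0.0114). SUP45 changed by -0.071 log2 (SE 0.05) relative to SUP35 within arrays, and there the strains overlapped. Neither kept its call in the low-spike arrays alone (limma adjusted p = 0.0551 for SUP45 and 0.146 for SUP35) or in the high-spike arrays alone (limma adjusted p = 0.0530 for SUP45 and 0.0797 for SUP35).

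**Figure D3:**
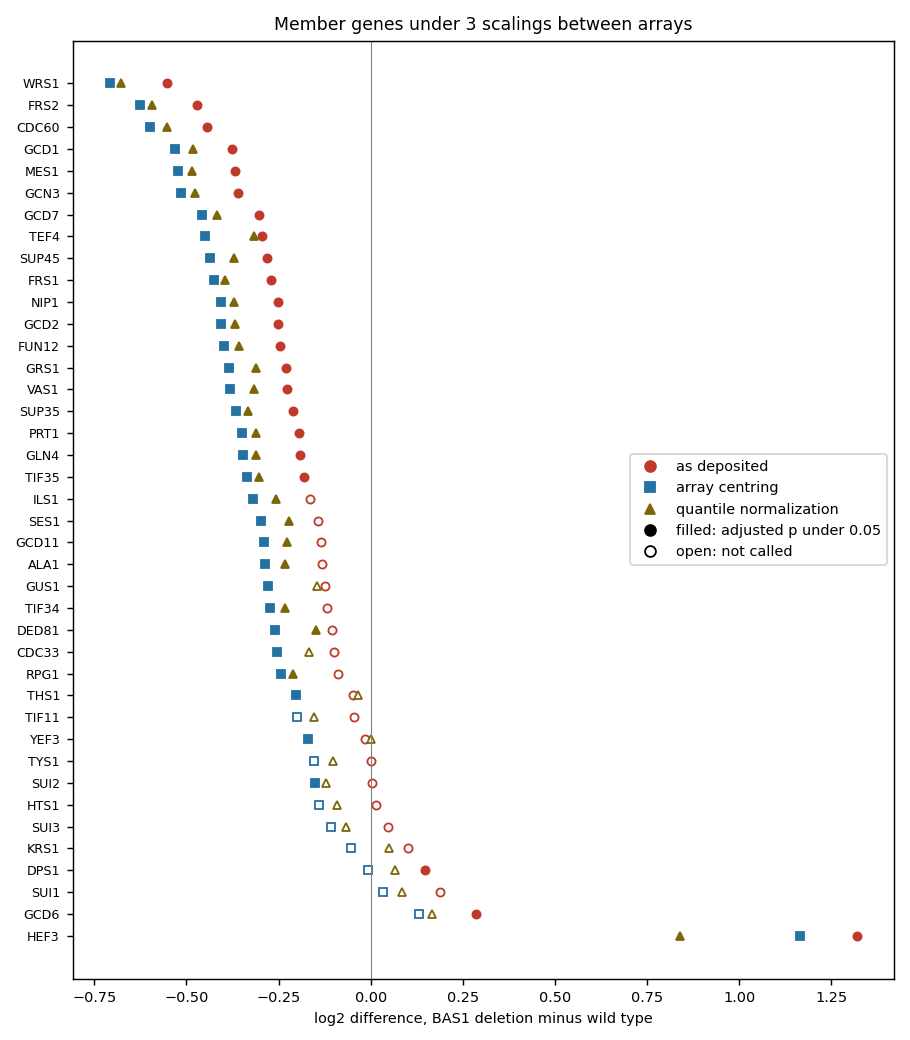
Log2 difference of each of the 40 genes, deletion minus wild type, as deposited (circles), after array centring (squares) and after quantile normalization (triangles), filled where the adjusted p was under 0.05. Array centring moves every gene down by the same amount, so that 31 fall and 1 rises; HEF3 stays the sole gene called higher under all 3.

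Related genes outside the 40 were read from lists written from general knowledge. Of 12 measured initiation factor genes, 5 fell and 1 rose, with a median of -0.15. Among all genes 19.8% were lower and 39.6% higher, with a median of 0.11. TIF4631 and TIF4632 encode the eIF4G scaffolds, which bind eIF4E. TIF4631 had levels of 11.90, 11.96 and 11.75 in the deletion arrays and 12.46, 12.37 and 12.48 in the wild-type arrays, and fell 1.48-fold (limma adjusted p = 7.2e-04). TIF4632 fell 1.44-fold (limma adjusted p = 1.8e-04), and TIF5, for eIF5, which activates GTP hydrolysis on eIF2, fell 1.42-fold (limma adjusted p = 1.7e-04). Relative to CDC33 in the same arrays, TIF4631 changed by -0.47 log2 and TIF4632 by -0.43 log2, without overlap between strains. EAP1, for a protein that competes with eIF4G for eIF4E, rose 1.23-fold (limma adjusted p = 0.0220), a call that ended after array centring (limma adjusted p = 0.193).

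Of 8 measured elongation and rescue genes outside the 40, 7 did not pass the test and 1 fell. Among all genes 19.8% were lower and 39.6% higher. The fall among the 8 was in ANB1, the gene of the eIF5A isoform made when oxygen is low. Its levels were 9.26, 8.98 and 8.80 in the deletion arrays and 10.27, 10.15 and 10.30 in the wild-type arrays, 2.34-fold lower (difference -1.23, SE 0.12, limma adjusted p = 2.6e-04). HYP2, the gene of the isoform made in air, differed by 0.0015 (limma adjusted p = 0.981), and ANB1 changed by -1.23 log2 relative to HYP2 within arrays. TEF2 and EFT2, for eEF1A and eEF2, differed by 0.0082 and -0.041. After array centring 3 of the 8 fell, EFT2 among them (-0.20, limma adjusted p = 0.0223), beside 33.1% of all genes. The TEF2 and EFT2 probe sets carry the suffix for several matching transcripts. They are named for 1 gene of a near-identical pair, so TEF1 and EFT1 cannot be told apart from them.

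Of 4 measured synthetase and cofactor genes outside the 40, 1 fell and 2 rose, beside 19.8% lower and 39.6% higher among all genes. GRS2, the stress-related second glycyl-tRNA synthetase gene, had levels of 10.55, 10.58 and 10.62 in the deletion arrays and 10.23, 10.23 and 10.12 in the wild-type arrays. GRS2 rose 1.31-fold (limma adjusted p = 0.0011), and it changed by 0.62 log2 relative to GRS1, which fell. YDR341C, the arginyl-tRNA synthetase gene, also rose, 1.14-fold (limma adjusted p = 0.0357), a call that ended after array centring (0.033). YHR020W, for the prolyl enzyme, was not called. The 15 comparisons of 1 gene with another were made on pairs picked after the values were seen and are descriptions.

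**Figure D4:**
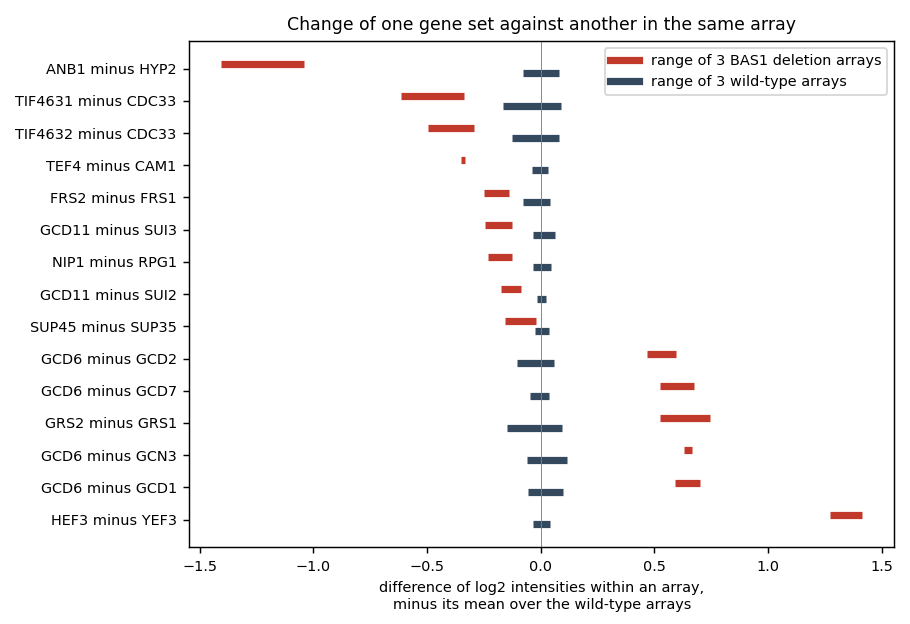
For each pair, the log2 intensity of the first gene minus that of the second in the same array, with the mean of the wild-type arrays set to 0; bars span the lowest to the highest of 3 arrays (red, BAS1 deletion; dark, wild type). The strains overlap only for SUP45 minus SUP35.

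Mitochondria have their own translation machinery. Of 14 mitochondrial synthetase genes 7 fell and 1 rose (all genes: 19.8% lower, 39.6% higher), with a median of -0.16. MST1, for the threonyl enzyme, fell 1.47-fold (limma adjusted p = 0.0011), MSM1, for the methionyl enzyme, fell 1.28-fold (limma adjusted p = 0.0063) and DIA4, for a seryl enzyme, fell 1.27-fold (limma adjusted p = 0.0012). MSD1, the aspartyl enzyme's gene, rose 1.12-fold (limma adjusted p = 0.0326), as did DPS1 in the cytosolic set, and it too lost its call after array centring (0.013). Of 7 mitochondrial translation factor genes 2 fell and 2 rose, which is near the shares of all genes (19.8% lower, 39.6% higher). MEF1, an elongation factor G gene, fell 1.41-fold (limma adjusted p = 7.1e-04) and MEF2, a gene related to it that acts in ribosome recycling, rose 1.51-fold (limma adjusted p = 1.3e-04). IFM1, for the mitochondrial initiation factor, fell 1.22-fold (limma adjusted p = 0.0102). AIM23, for a mitochondrial initiation factor of another kind, rose 1.25-fold (limma adjusted p = 0.0049), a call that ended after array centring (0.17, limma adjusted p = 0.0572).

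In the Gcn2 pathway 2 of 6 genes fell and 1 rose, beside 19.8% lower and 39.6% higher among all genes, and nothing is read from so few for the pathway. GCN1 and GCN20, whose products activate Gcn2 on the ribosome, fell 1.29-fold and 1.31-fold (limma adjusted p = 0.0045 and 4.2e-04). YIH1, for a protein that competes for Gcn1 and so restrains Gcn2, rose 1.60-fold, with levels of 11.60, 11.62 and 11.56 in the deletion arrays and 11.01, 10.92 and 10.82 in the wild-type arrays (limma adjusted p = 2.0e-04). GCN2 and GCN4 did not pass the test, at -0.15 and 0.17 (limma adjusted p = 0.114 and 0.145). After array centring GCN2 was called lower (-0.30, limma adjusted p = 0.0142) and GCN4 was not called (0.020).

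**Figure D5:**
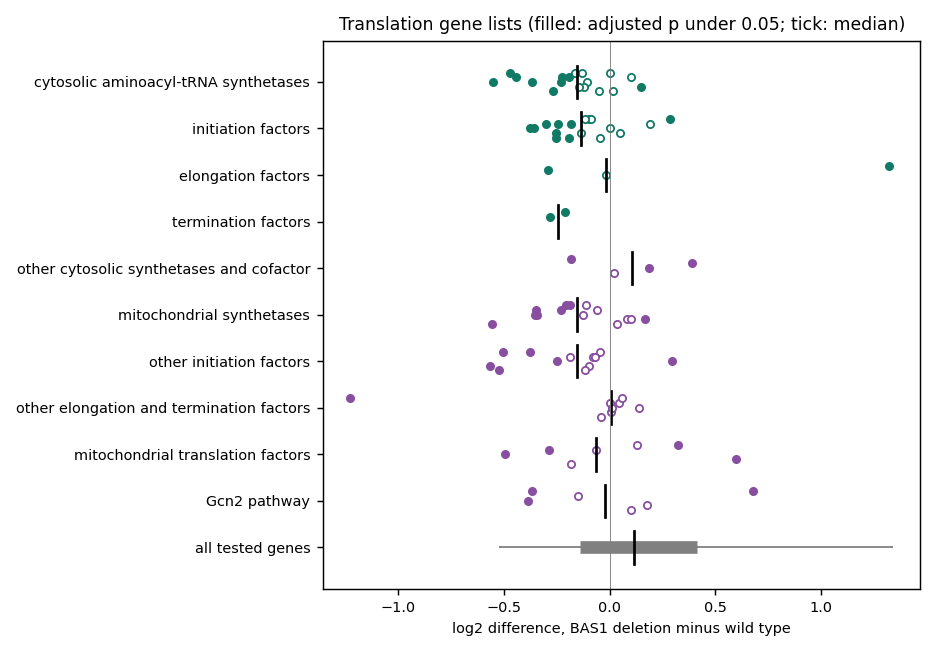
Log2 differences, deletion minus wild type, of the 40 genes by class (green) and of the related lists (purple), filled where the adjusted p was under 0.05, with a tick at each median. The grey bar spans the 25th to the 75th percentile of all tested genes, -0.14 to 0.41, and the thin line the 5th to the 95th percentile, -0.52 to 1.34.

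The 40 genes lie on 15 chromosomes, with at most 6 on 1 of them, and no pair of them are neighbours among the tested genes. Of their 80 neighbours on the chromosome, 10 were called lower (12.5%) and 30 higher (37.5%), with a median difference of 0.11, which is also that of all tested genes. Of 21 neighbours read divergently from a member's 5′ side, 2 were called lower and 5 higher. Among all genes 19.8% were lower and 39.6% higher. One of the 2 lower divergent neighbours was GAT1, a nitrogen regulator gene beside FRS2, at -0.46 (limma adjusted p = 0.0014). The other was ARP7, a chromatin remodeller gene beside HTS1, at -0.66 (limma adjusted p = 1.8e-04), whereas HTS1 was not called. Both neighbours were called higher for 5 of the 40 genes, whose own calls differed: HEF3 rose, SUP35 fell, and ILS1, SUI2 and GCD11 were not called. How often both neighbours were higher over all genes was not counted, so nothing is read from these 5. Beside HEF3, PBI2 rose by 1.60 log2 (limma adjusted p = 0.0049) and SPO1 by 2.21 log2 (limma adjusted p = 2.5e-05). Beside SUP35, HSP42 rose by 2.52 log2 (limma adjusted p = 1.8e-04) and ARG82 by 0.91 log2 (limma adjusted p = 2.6e-05). For FRS2 alone both neighbours were called lower.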

How the data were processed

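Values for 6 Affymetrix arrays were used as deposited: intensities on a linear scale, made with R 2.8.0, affy and RMA per the submitters' processing notes, from which log2 was taken here. Arrays carry no read depth, and their number limits the precision. Of 10928 probe sets, 5498 had 1 gene of the RefSeq table (assembly R64), which gave 5449 genes, each by its brightest probe set. The 2 strains were tested with the package limma 3.58.1 under R 4.3.3 (group as the only term, Benjamini-Hochberg over all genes, threshold 0.05), tested on simulated data. For background, the 95th percentile over 1746 probe sets whose gene is not in that table was taken on each array. Members and lists were chosen with earlier results of these data known. All 40 genes are named; from related lists, up to 3 called rises and 3 called falls each, and other genes beside them were named after their values were seen. TIF1, TEF1, EFT1 and YNL247W were not matched to a probe set of their own and are not analysed separately here. TEF1 and EFT1 may be read by the probe sets named for TEF2 and EFT2, and the TIF2 probe set has the same suffix. The alternatives were other scalings, a block for replicate number, filters, probe set rules, variance settings, threshold and leaving out each array, and, chosen after seeing the data, spike level. Promoter and protein sequences were not analysed here.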

Additional observations from a re-analysis of the deposited data

How the results depend on the processing

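HEF3 stayed higher, and WRS1, FRS2, CDC60, MES1 and GCD1 stayed lower, with a call under every alternative run, the spike subsets included. Array centring gave 1803 genes lower, 31 of the 40 genes lower and 1 higher, and medians of -0.31 for synthetases, -0.29 for initiation, -0.17 for elongation and -0.40 for termination genes. Under it signs turned for DPS1 (-0.0072), HTS1 (-0.14), KRS1 (-0.053), TYS1 (-0.15), SUI2 (-0.15) and SUI3 (-0.11), since it lowers every gene by the same amount. Quantile normalization gave 1935 genes lower and 1356 higher, 1 of the 40 higher, and medians of -0.24 for synthetases, -0.23 for initiation and -0.35 for termination genes. Signs turned there for HTS1 (-0.092), TYS1 (-0.10), SUI2 (-0.12), SUI3 (-0.066) and YEF3 (0.0012), after cyclic loess for HTS1 (-0.0064), TYS1 (-0.020), SUI2 (-0.036) and YEF3 (0.0044), and with array weights for TIF11 (0.028) and SUI2 (-0.0025). For these and the turns below the cause was not tested, and none of them but SUI2 after array centring carried a call.

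All probe sets gave 1825 probe sets lower. At an adjusted p under 0.01, 2311 genes were called, 679 lower and 1632 higher, and 12 of the 40 were called, 10 of them lower. Spike level was looked at after seeing the data, and each subset sets 2 arrays against 1, the lone one assumed to vary like the others. Low-spike arrays alone gave 1593 genes called, 491 lower and 1102 higher, 7 of the 40 called, 6 lower and 1 higher, and a median of -0.21 for initiation genes, with HTS1 at -0.016, TYS1 at -0.020 and SUI1 at -0.028. High-spike arrays alone gave 614 genes lower, 8 of the 40 called, 7 lower and 1 higher, and a median of -0.070 for elongation genes, with TYS1 at -0.015 and SUI2 at -0.036. With spike level as a block, HTS1 was at -0.0078 and TYS1 at -0.018.

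Replicate numbers did not pair the samples, as same-numbered deviations correlated at 0.44, -0.51 and -0.44. With the replicate block 3140 genes were called, 1010 lower and 2130 higher, and 16 of the 40 fell and 2 rose. Leaving out each array gave 15 to 25 of the 40 called, 13 to 23 lower and 2 higher throughout. Over all genes 2709 to 3020 were then called, 862 to 979 lower and 1847 to 2053 higher. Leaving out an array turned the sign, with no call, of TYS1 (-0.038 to 0.020), SUI2 (-0.012 to 0.024), YEF3 (-0.042 to 0.015), TIF11 (-0.099 to 0.012) and HTS1 (-0.013 to 0.038).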
